A study of Mus musculus with 2 samples.

Results

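Cycling cushion-type mesenchymal cells were taken from single-cell RNA profiles of mouse hearts at embryonic day E12.5. They numbered 322 of the 8740 cells kept, 194 of 4640 in the mutant library and 128 of 4100 in the control library. The mutant was Tbx18-Cre; Prmt1 fl/fl;YFP/+ and the control Tbx18-Cre; YFP/+, so that both carried the Cre driver and the YFP reporter and differed by the floxed Prmt1 alleles. Tbx18-driven Cre is known for the epicardium and its progeny, while cushion mesenchyme comes largely from the endocardium, and which of these cells had expressed the Cre was not tested. Tbx18 itself had 2 UMIs in the cycling cells of each library. There was 1 library per genotype. The sources used here do not give how many embryos each held or whether cells were sorted for YFP. Differences between genotypes are therefore given without a replicate check and without a test. Every interval below is a 95% interval for counting error only.

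The members were chosen on measured values, the UMIs (unique molecular identifiers, one per captured transcript) of marker genes. A kept cell had at least 1000 UMIs, at least 500 genes and at most 20% mitochondrial UMIs. The cushion-type gate required at least 3 UMIs of Car3, Cthrc1, Msx1 and Pdlim3 with 2 of these genes seen, under 30 UMIs per 10000 of the muscle genes Tnnt2 and Tnnc1, and at most 1 UMI each of an epicardial set (Tcf21, Upk3b, Krt19) and an endothelial set (Pecam1, Cdh5, Egfl7). It held 607 mutant and 413 control cells. Cycling cells had at least 2 UMIs of Pclaf, Cdk1, Prc1 and Top2a, here called cycle UMIs. The cells of the same gate with 0 cycle UMIs, 340 in the mutant and 243 in the control, served as the comparison, and 73 mutant and 42 control cells with exactly 1 fell between.

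Endocardial cushions are the swellings from which the heart valves and part of the septa form. Endocardial cells invade the cushion matrix, become mesenchymal and then divide and fill it, laying down proteoglycans and collagens. Msx1 and Twist1 encode transcription factors of this mesenchyme. Of the genes that define cycling here, Pclaf encodes a factor that binds the replication clamp PCNA and is made from G1/S onwards, Cdk1 the kinase that drives entry into mitosis, Top2a the topoisomerase that untangles replicated chromosomes, and Prc1 a cross-linker of spindle midzone microtubules. Genes of the S phase programme are commonly read by E2F factors, and genes of the G2 and mitosis programme by the DREAM complex and its partners at CHR elements and by NF-Y at CCAAT boxes.

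The promoters of the genes that set the gate, and of 3 further genes of the programme, are shown because the cells were divided by the first 4 and described by the others. Each line covers the 250 bases before and the 50 bases after the RefSeq start, in GRCm38.p6, 5′ to 3′ on the strand of the gene. Capitals mark the CHR hexamer TTTGAA, the box CCAAT, and the E2F-type octamers TTTCGCGC and TTCCCGCC, searched on both strands, and no matches overlapped. The windows are chr10:69352863-69353162 on the minus strand for Cdk1, chr11:99024140-99024439 on the minus strand for Top2a, chr7:80294201-80294500 on the plus strand for Prc1, chr9:65890073-65890372 on the plus strand for Pclaf, chr13:100786437-100786736 on the minus strand for Ccnb1, chr9:70421505-70421804 on the minus strand for Ccnb2, and chr8:75109259-75109558 on the plus strand for Mcm5.
Cdk1: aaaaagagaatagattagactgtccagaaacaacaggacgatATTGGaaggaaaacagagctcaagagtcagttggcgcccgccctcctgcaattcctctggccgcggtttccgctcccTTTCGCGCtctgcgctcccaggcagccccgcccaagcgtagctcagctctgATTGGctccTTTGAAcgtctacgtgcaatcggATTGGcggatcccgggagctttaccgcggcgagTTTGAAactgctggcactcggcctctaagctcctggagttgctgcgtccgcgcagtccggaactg
Top2a: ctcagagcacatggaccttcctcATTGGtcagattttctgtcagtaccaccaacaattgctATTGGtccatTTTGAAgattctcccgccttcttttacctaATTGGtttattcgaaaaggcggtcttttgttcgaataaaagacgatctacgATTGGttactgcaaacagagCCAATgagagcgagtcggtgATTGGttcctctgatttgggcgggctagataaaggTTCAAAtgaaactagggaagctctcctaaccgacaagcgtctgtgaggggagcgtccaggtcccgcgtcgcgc
Prc1: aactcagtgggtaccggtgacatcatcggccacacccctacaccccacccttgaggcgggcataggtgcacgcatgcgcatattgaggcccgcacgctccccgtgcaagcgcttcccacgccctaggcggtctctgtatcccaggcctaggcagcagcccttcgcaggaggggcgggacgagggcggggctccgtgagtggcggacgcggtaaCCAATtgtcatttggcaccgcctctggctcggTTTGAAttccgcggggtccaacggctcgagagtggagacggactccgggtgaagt
Pclaf: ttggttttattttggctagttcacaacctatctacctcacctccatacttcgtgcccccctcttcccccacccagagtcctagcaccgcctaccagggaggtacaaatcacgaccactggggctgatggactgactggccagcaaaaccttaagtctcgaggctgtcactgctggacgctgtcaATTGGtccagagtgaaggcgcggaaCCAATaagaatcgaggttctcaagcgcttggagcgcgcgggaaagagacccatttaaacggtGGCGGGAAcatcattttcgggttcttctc
Ccnb1: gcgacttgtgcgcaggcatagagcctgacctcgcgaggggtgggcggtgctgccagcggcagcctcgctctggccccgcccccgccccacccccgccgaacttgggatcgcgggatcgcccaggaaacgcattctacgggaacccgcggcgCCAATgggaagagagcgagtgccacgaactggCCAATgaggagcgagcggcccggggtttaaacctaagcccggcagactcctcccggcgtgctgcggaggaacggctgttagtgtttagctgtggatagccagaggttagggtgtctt
Ccnb2: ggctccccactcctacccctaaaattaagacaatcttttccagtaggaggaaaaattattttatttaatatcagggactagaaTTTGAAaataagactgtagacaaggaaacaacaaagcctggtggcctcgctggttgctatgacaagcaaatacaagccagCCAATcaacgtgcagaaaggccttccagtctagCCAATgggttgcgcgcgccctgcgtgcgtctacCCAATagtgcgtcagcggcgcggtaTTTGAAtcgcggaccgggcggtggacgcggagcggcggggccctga
Mcm5: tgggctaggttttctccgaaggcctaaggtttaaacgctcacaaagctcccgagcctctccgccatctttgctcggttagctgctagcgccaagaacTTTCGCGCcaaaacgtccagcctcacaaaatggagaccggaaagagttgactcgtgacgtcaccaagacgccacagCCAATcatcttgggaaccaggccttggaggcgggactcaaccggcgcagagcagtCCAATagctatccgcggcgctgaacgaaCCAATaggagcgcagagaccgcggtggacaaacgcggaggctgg
The mitotic genes Cdk1, Top2a and Ccnb2 each held 2 matches to TTTGAA and Prc1 held 1, while the mitotic gene Ccnb1 held none, as did Pclaf and Mcm5. CCAAT was matched 6 times in Top2a, 3 times in Cdk1, Ccnb2 and Mcm5, 2 times in Pclaf and Ccnb1 and 1 time in Prc1. TTTCGCGC was matched in Cdk1 and Mcm5, and TTCCCGCC in Pclaf. Of 32851 promoters of this length, 17.9% held TTTGAA, 37.4% CCAAT, 0.323% TTTCGCGC and 2.19% TTCCCGCC. A match is a description of these letters and not evidence of binding.

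The label was set beside markers that the gate did not use, not all of which were high. Among cushion markers, Twist1 stood at 438 UMIs per 1000000 (CPM) in the mutant, against 320 CPM in the control, Vcan, which encodes the cushion proteoglycan versican, at 407 and 320 CPM, and Tbx20, a cardiac transcription factor, at 146 and 109 CPM. Postn stood at 590 and 266 CPM, Col3a1 at 245 and 266, Sox9 at 196 and 117, and Col1a1 at 172 and 109. Pdgfra (60.5 and 78.7 CPM), Has2 (57.4 and 43.4) and Msx2 (23.3 and 10.9) were low. Vim was at 727 and 432 CPM, below its 2033 and 2009 CPM in endothelial-gated cells. Twist1 had 0 UMIs in endothelial-gated cells of both libraries. Msx1 helped to choose the cells, so its presence in 66.0% of mutant and 57.8% of control members is a description of the gate. The epicardial genes Wt1, Msln and Krt8 were at 0 UMIs in both libraries, among 9 of 15 such genes of the epicardial list. Tcf21 of that list, of which the gate allowed 1 UMI, was present. It had 71 UMIs in 71 mutant cells (110 CPM) and 32 UMIs in 32 control cells (86.9 CPM). In endothelial-gated cells Tcf21 had 1 UMI in the mutant and 0 UMIs in the control. Whether part of the members came from the epicardium was not tested. Of the immune list 9 of 11 genes were at 0 UMIs in both libraries, Ptprc and Csf1r among them. Genes of vessel walls were present: Tagln stood at 1315 CPM in mutant and 1808 CPM in control cells, while Myh11, which marks mature smooth muscle, was at 0 in both. Muscle transcripts were present too, at a summed 1947 CPM in mutant and 3941 CPM in control cells over 16 cardiomyocyte genes, and are taken up below. In control barcodes with at most 100 UMIs, which hold free RNA, the 4 cycle genes together made up 824 CPM and the cushion genes of the gate 251 CPM. Tnnt2 and Tnnc1 made up 3996 CPM there, and haemoglobin genes 7.40% of the UMIs. The part of free RNA in the muscle and haemoglobin transcripts of the members was not tested.

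Library-wide facts that bear on the genotype values are few. The kept cells had medians of 4046 UMIs in the mutant and 5897 UMIs in the control, and 8 barcodes occurred in both libraries, none of them among the cycling members. Xist, the RNA of the inactive X chromosome, stood at 206 CPM in cycling mutant cells and 10.9 CPM in cycling control cells, and Hbb-bt, an adult-type globin, at 1107 and 293 CPM, although haemoglobin as a whole took 2.67% and 2.66% of their UMIs. The labels name the v2 kit for both libraries, but the control's list of 6794880 barcodes is longer than that kit's list, so the chemistry is unsure. The part of these differences, or of a difference in chemistry, in the gene ratios below was not tested.

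The share of cushion-type cells that were cycling was 32.0% (28.3 to 35.8) in the mutant and 31.0% (26.6 to 35.7) in the control. The difference of 0.97 percentage points has an interval of -4.88 to 6.69 points, which spans both directions. With each cell thinned to 1000 UMIs the shares were 25.7% in the mutant and 25.7% in the control, a difference of 0.03 points (-5.49 to 5.41). Among cells with at least 2000 UMIs, 335 in the mutant and 163 in the control, the direction turned: 48.7% of mutant and 58.3% of control cells were cycling, a difference of -9.63 points. This value lies outside the interval of the main one, but it rests on fewer cells and is given without an interval of its own. Whether the share difference depends on the depth required of the cells was not tested. Another population was mesenchymal cells with at least 2 Tcf21 UMIs and under 3 cushion UMIs. After the same thinning, 27.4% of its mutant cells and 38.0% of its control cells had at least 2 cycle UMIs. The difference was -10.7 points (-19.2 to -2.35). Endothelial-gated cells, with at least 3 UMIs of the endothelial set, had 24.2% in the mutant and 31.7% in the control (-7.50 points, -21.8 to 6.27). Cells at or above the muscle limit of 30 UMIs per 10000 had 22.5% in the mutant and 23.0% in the control (-0.54 points, -3.27 to 2.22). Whether the differences of these populations differ from that of the cushion-type cells was not tested.

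Cycling cells carried more RNA than their neighbours in the gate. Their median was 2705 UMIs in the mutant and 2407 UMIs in the control, against 1815 and 1545 UMIs in cells with 0 cycle UMIs, a ratio of 1.49 in the mutant and 1.56 in the control. A deeper cell is also more likely to reach 2 cycle UMIs, and from 2000 UMIs upwards the ratios were 1.21 and 1.02. Genes detected per cell had medians of 1149 and 1046 in cycling cells of the mutant and control, against 893 and 784 with 0 cycle UMIs. At 1000 UMIs per cell these became 592 and 588 in cycling cells, against 592 and 584. A few cells held much of the RNA: the deepest 5% of cycling cells, 10 in the mutant and 7 in the control, supplied 21.6% and 17.7% of the UMIs. Of the cycling cells, 8 in the mutant (4.12%) and 5 in the control (3.91%) were in the top 6% of their library's doublet scores. Of the cells with 0 cycle UMIs, 6 in the mutant (1.76%) and 3 in the control (1.23%) were.

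The members had a median of 10 cycle UMIs in each library, with quartiles of 6 and 15 in the mutant and 6 and 14 in the control. Just inside the threshold, 24 mutant and 8 control cells had exactly 2, against 73 and 42 just outside it with 1. Lists of G2 and mitosis, S phase and histone genes, read without the 4 genes of the gate, were graded over this range. The G2 and mitosis list, the genes of spindle, kinetochore and mitotic cyclins, took 9.88 UMIs per 10000 in mutant cells and 9.69 in control cells with 0 cycle UMIs. With 1 cycle UMI it took 24.1 in the mutant and 20.4 in the control, with 2 to 4 it took 55.2 and 40.3, and with 5 to 9 it took 90.7 and 71.1. Above that it was flat in the mutant, at 90.8 with 10 to 19 and 91.1 with 20 or more. In the control it rose from 71.1 (65.6 to 76.9) to 82.2 (77.8 to 86.8) with 10 to 19. With 20 or more the control stood at 78.1. Cells with 1 cycle UMI, which the gate leaves out, thus lay between the 0 group and the members on this list. The list includes Pttg1, which is taken up below. Over all members it supplied 1150 of the list's 8581 CPM in the mutant and 223 of 7068 CPM in the control. The gap between the libraries on this list therefore holds a large part from 1 gene.

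The G1/S and S phase list stayed low for longer: 16.3 UMIs per 10000 in the mutant and 19.1 in the control with 2 to 4 cycle UMIs, against 11.5 and 11.8 with 0. It reached 33.8 and 31.3 with 5 to 9. Replication-dependent histone transcripts, which lack a long poly(A) tail outside certain states and so are caught incompletely by 3′ tagging, took 4.71 UMIs per 10000 in the mutant and 6.97 in the control with 2 to 4 cycle UMIs. They kept growing to 32.5 in the mutant and 24.0 in the control with 20 or more, where the control had 11 cells only.

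**Figure D1:**
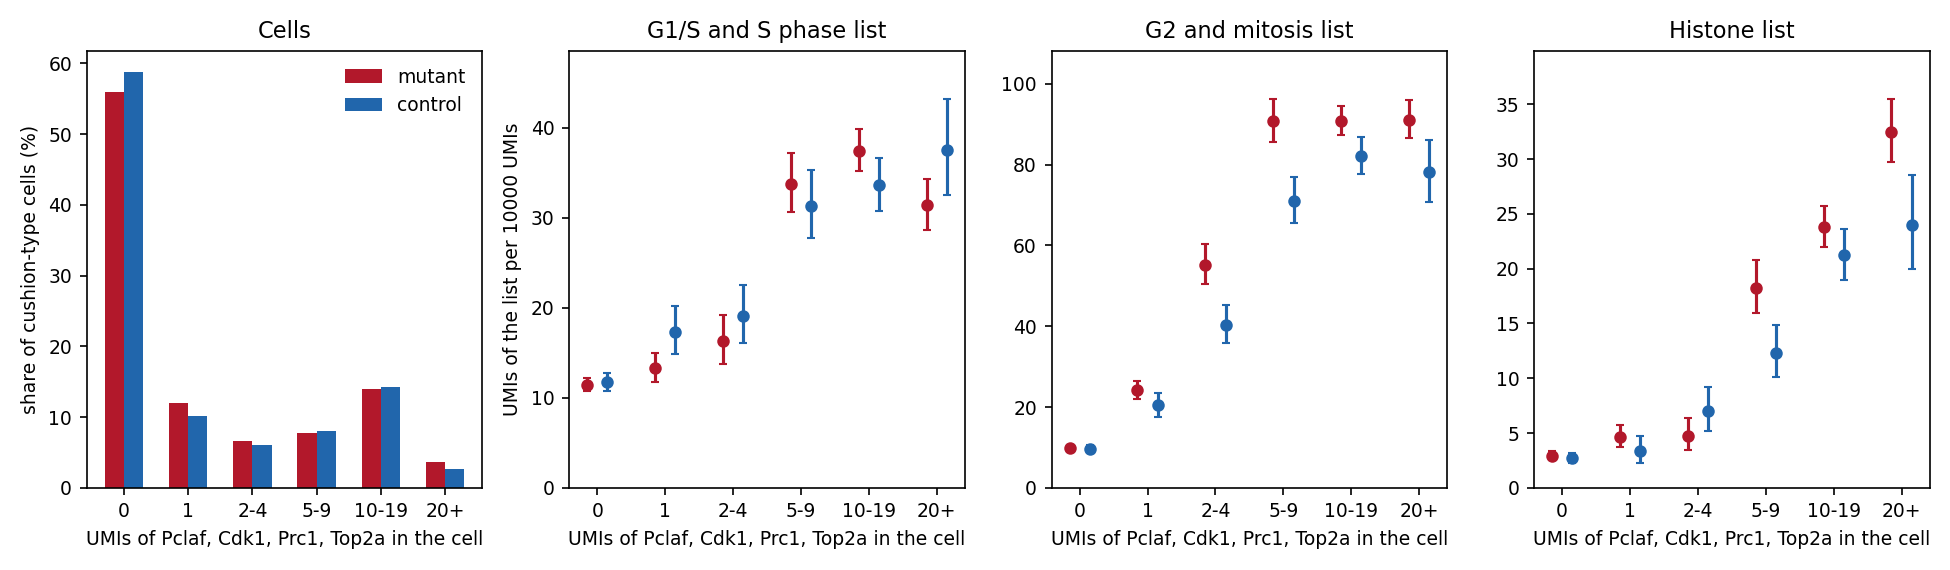
Share of cushion-type cells (bars, percent) and UMIs per 10000 of 3 gene lists (points with 95% Poisson intervals) by the number of cycle UMIs in the cell, mutant in red and control in blue. The G2 and mitosis list, which includes Pttg1, reaches its plateau at 5 to 9 cycle UMIs in the mutant, at 90.7 per 10000. The histone list is highest with 20 or more, at 32.5 in the mutant and 24.0 in the control.

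The members differed in which cycle genes they showed. Pclaf was seen in 95.4% of mutant and 93.8% of control members, Cdk1 in 75.3% and 70.3%, Prc1 in 50.5% and 53.9%, and Top2a in 37.6% and 41.4%. All 4 were seen in 21.6% of mutant and 23.4% of control members. Cycle UMIs came from Pclaf alone in 32 mutant cells (16.5%) and 22 control cells (17.2%), a difference of -0.69 points (-9.44 to 7.38). After the cycling cells were thinned to 1000 UMIs, Pclaf alone was seen in 35.4% of mutant and 33.6% of control cells that kept a cycle UMI, so the size of this subclass depends on depth.

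Cells with Pclaf alone had less of the mitotic list than the others, while their S phase list was as high in the mutant and higher in the control. The S phase list took 32.4 UMIs per 10000 in Pclaf-only mutant cells and 47.1 in Pclaf-only control cells, against 32.2 and 28.5 in members with Cdk1, Prc1 or Top2a. The mitotic list, with Pttg1 in it, took 41.5 and 24.9, against 91.5 and 77.1. Ccnb1, which encodes the cyclin partner of Cdk1 in mitosis, had 0 UMIs in Pclaf-only cells of both libraries, against 33 UMIs in the other mutant members and 9 UMIs in the other control members. Cenpf, a kinetochore and nuclear matrix protein of G2, had 8 and 0 UMIs, against 183 and 88. Ube2c, the ubiquitin-conjugating enzyme of the anaphase-promoting complex, stood at 176 and 111 CPM, against 980 and 990 CPM. Tyms, the thymidylate synthase of S phase, went the other way, at 543 and 622 CPM against 396 and 399 CPM. Pcna stood at 81.4 and 133 CPM against 54.3 and 74.2 CPM, from 6 UMIs in the Pclaf-only cells of each library. By the naming rule, the genes furthest higher in Pclaf-only cells were Ptprk, Pmm1, Foxp2, Sft2d1 and Epb41l4aos, with at most 12 UMIs there in a library. Those furthest lower were Myl2, Myl7, Myl3, Cox6a2 and Map4k4. Over all mutant members, single cells held 54 of 113 UMIs of Myl2, 132 of 250 of Myl7 and 57 of 92 of Myl3. Pclaf-only cells had at most 4149 UMIs in the mutant and 3974 in the control, against 30172 and 11644 in the other members. The part of such deep cells in these ratios was not tested. The classes were set by genes of the same programme, so these differences are a description.

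Across the transcriptome the cycling cells differed from the 0 group by a compact programme. Ratios are log2((CPM + 10)/(CPM + 10)) of UMIs summed over cells, over genes with at least 10 CPM on average. Of 6225 genes, 165 were at least 2-fold higher in cycling cells in both libraries (2.65%) and 10 were at least 2-fold lower (0.161%). The gate used this contrast, so these counts and those of the lists are descriptions. Ube2c led, at 888 CPM in mutant and 882 CPM in control cells, against 19.7 and 12.6 CPM in cells with 0 cycle UMIs (log2 4.92 and 5.31). It was seen in 60.3% and 53.9% of members, against 3.82% and 2.47% of the 0 group. Nusap1, a spindle microtubule protein, had 121 UMIs in the mutant and 80 in the control, against 0 in both. These levels were 47.6-fold and 34.6-fold those of 3 UMIs in the 0 group, and the intervals of the ratios began at 38.2 and 27.5.

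Of the G2 and mitosis list, 52 of 54 tested genes were at least 1.5-fold higher in both libraries and none lower, with medians of 2.30 in the mutant and 2.12 in the control. The background at this fold was 4.43% of genes higher and 3.0% lower, and the medians of all genes were -0.04 and -0.14. Cenpf (297 and 239 CPM, against 9.20 and 8.37 CPM), Birc5, the survivin subunit of the chromosomal passenger complex (442 and 385, against 26.3 and 12.6), and Cdca3, a trigger of mitotic entry (222 and 204, against 5.26 and 8.37), were among its leading members. Sgo1, the shugoshin that guards centromere cohesion, stood at 115 and 157 CPM, against 1.31 and 6.28 CPM, and Fbxo5, an inhibitor of the anaphase-promoting complex, at 112 and 128 CPM, against 2.63 and 2.09 CPM. Shcbp1, a midbody protein outside the list, stood at 101 and 155 CPM, against 1.31 and 2.09 CPM, which rest on 1 UMI in each library.

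The 35 tested genes of the G1/S and S phase list had 20 higher at this fold in both libraries and none lower, with medians of 1.12 in the mutant and 0.94 in the control. Rrm2, a subunit of ribonucleotide reductase, stood at 110 and 89.6 CPM, against 2.63 and 0 CPM. Tyms stood at 413 and 426 CPM, against 68.3 and 67.0 CPM, and Rfc4, a clamp loader subunit, at 247 and 304 CPM, against 68.3 and 41.9 CPM. Tk1, the thymidine kinase of S phase and not in the list, had 160 and 69 UMIs, against 7 and 0. Mcm5, a subunit of the replicative helicase whose promoter is printed above, had 15 and 4 UMIs, against 2 and 7, and so a log2 ratio of 1.40 in the mutant and -0.24 in the control.

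Histones and chromatin proteins followed. Of 13 tested histone genes 10 were higher and 1 lower. Hist1h2ap stood at 702 CPM in mutant and 358 CPM in control cells, against 23.7 and 8.37 CPM, and the linker histone gene Hist1h1b at 326 and 204 CPM, against 9.20 and 6.28 CPM. Hist1h2ae stood at 452 and 299 CPM, against 26.3 and 6.28 CPM. Genes of this family are near-identical copies, so the division of reads among them is uncertain. Of 30 chromatin assembly and high-mobility-group genes 15 were higher and none lower, with medians of 0.70 and 0.84. Hmgb2, a DNA-bending protein of dividing cells, stood at 1219 and 1224 CPM, against 191 and 207 CPM, and H2afx, the histone variant of the DNA damage response, at 247 and 250 CPM, against 46.0 and 18.8 CPM. Of the 16 tested cyclins, inhibitors and Rb family genes 1 was higher and 1 lower in both libraries. The higher one was Cdkn2d, an inhibitor of CDK4 and CDK6, at 99.4 and 103 CPM, against 38.1 and 27.2 CPM.

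**Figure D2:**
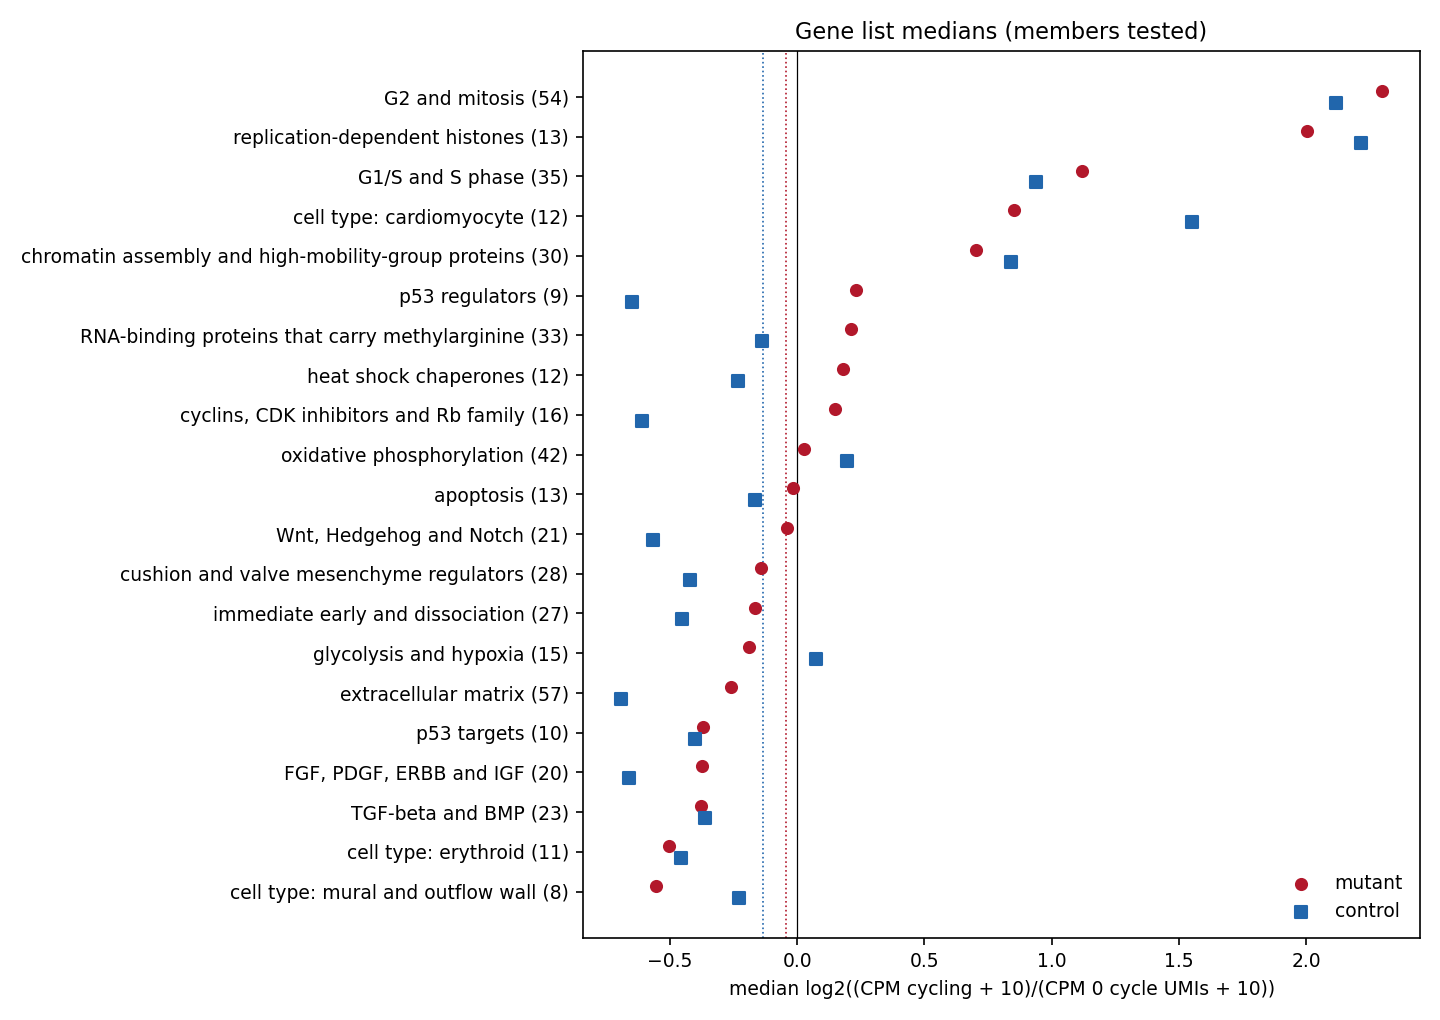
Median log2 ratio, cycling cells over cells with 0 cycle UMIs, of each gene list with at least 5 tested members (number tested in brackets), mutant in red circles and control in blue squares, with dotted lines for the medians of all genes. The G2 and mitosis list stands at 2.30 in the mutant and 2.12 in the control, and the extracellular matrix list at -0.26 and -0.69.

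The genes lower in cycling cells included matrix genes and their modifiers. Of 57 tested extracellular matrix genes none was 1.5-fold higher and 11 were 1.5-fold lower in both libraries, with medians of -0.26 in the mutant and -0.69 in the control. Without the deepest 5% of cells the medians were -0.27 and -0.20. Papss2, which makes the sulphate donor for proteoglycans, stood at 23.3 CPM in mutant and 24.4 CPM in control cells, against 71.0 and 60.7 CPM. Gpc3, a glypican that restrains growth, stood at 79.2 and 86.9 CPM, against 180 and 163 CPM (log2 -1.09 and -0.84), and Loxl2, a collagen cross-linking oxidase, at 49.7 and 43.4 CPM, against 95.9 and 123 CPM. Without the deepest cells the control ratio of Loxl2 was -0.37, where it was -1.32 with them. Ctgf, a matricellular target of YAP and TGF-beta, stood at 71.4 and 65.1 CPM, against 141 and 144 CPM, and its control ratio of -1.04 was -0.44 without those cells. Tgfbi, a TGF-beta-induced adhesion protein from the TGF-beta and BMP list, stood at 59.0 and 54.3 CPM, against 227 and 115 CPM. Its log2 ratios of -1.78 and -0.96 were -0.49 and -0.46 without the deepest cells.

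The other lowest genes were regulators of varied kinds. Kdm5b, a histone H3K4 demethylase, stood at 40.4 and 38.0 CPM, against 109 and 105 CPM, though without the deepest cells its log2 ratio was -1.28 in the mutant and -0.26 in the control. Tsc22d1, a TGF-beta-induced leucine zipper gene, stood at 60.5 and 59.7 CPM, against 162 and 138 CPM, and Igfbp4, an IGF-binding protein, at 41.9 and 29.9 CPM, against 85.4 and 64.9 CPM. Nudt4, a hydrolase of inositol pyrophosphates, stood at 112 and 59.7 CPM, against 244 and 140 CPM, and the imprinted gene Peg3 at 69.9 and 65.1 CPM, against 155 and 130 CPM. Sfrp1, a secreted Wnt antagonist, stood at 51.2 and 62.4 CPM, against 98.6 and 113 CPM. Grina, Lpp, Gem and C1qtnf4 completed the lowest 12, each at 0.26 to 0.51 of the CPM of the 0 group in each library. In the control the log2 ratio of Lpp of -1.01 became 0.64 without the deepest cells, and that of Peg3 of -0.90 became 0.44 when cells were thinned before the gates. In the mutant that of Nudt4 of -1.06 became -0.08 without the deepest cells. Junb, an immediate early gene, stood at 54.3 and 29.9 CPM, against 95.9 and 103 CPM.

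**Figure D3:**
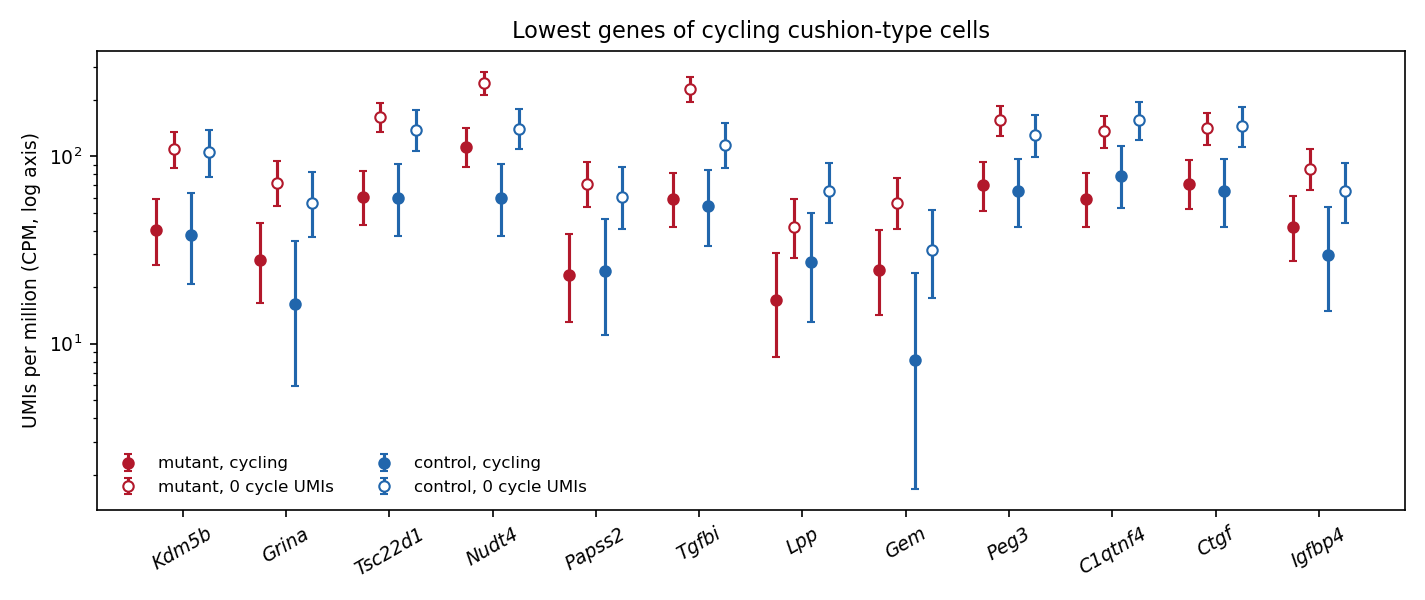
CPM with 95% Poisson intervals, on a log axis, of the 12 lowest genes in cycling cells (filled) and cells with 0 cycle UMIs (open), mutant in red and control in blue. In both libraries the filled point lies below the open one for every gene, for Papss2 at 23.3 against 71.0 CPM in the mutant and 24.4 against 60.7 CPM in the control.

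Few cushion and valve regulators passed 1.5-fold in both libraries, but their control median lay below that of all genes. Of 28 tested cushion and valve regulators none was higher and 1 lower in both libraries. The list medians were -0.14 in the mutant and -0.42 in the control, against -0.04 and -0.14 for all genes. Without the deepest cells the list medians were -0.12 and -0.05. The gate gene Msx1 stood at 931 CPM in mutant and 649 CPM in control cycling cells, against 820 and 555 CPM with 0 cycle UMIs, and Twist1 at 438 and 320 CPM, against 427 and 366 CPM. Sox9 stood at 196 and 117 CPM, against 175 and 243 CPM, and Vcan at 407 and 320 CPM, against 511 and 735 CPM. The cardiomyocyte list was higher in cycling cells, with 9 of 12 tested genes past 1.5-fold in both libraries and medians of 0.85 and 1.55. Without the deepest cells these medians were -0.04 in the mutant and -0.36 in the control.

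Between the genotypes most cycle genes differed by less than 1.5-fold. Over 6004 tested genes, 185 were at least 2-fold higher in the mutant (3.08%) and 60 at least 2-fold lower (0.999%). At 1.5-fold 834 were higher (13.9%) and 354 lower (5.9%), and the median of all genes was 0.08. With 1 library a genotype these count sizes, not changes. Without the deepest 5% of cells 122 were 2-fold higher and 107 lower, and with cells thinned to 1000 UMIs before the gates 276 were higher and 357 lower, so the balance of the counts gives no direction. Of the S phase list 3 of 35 tested genes were 1.5-fold higher in the mutant and none lower (median 0.12), and of the G2 and mitosis list 13 of 58 higher and none lower (median 0.18), Pttg1 among them. Ube2c stood at 888 CPM in mutant and 882 CPM in control cells, Cenpa, the centromeric histone, at 775 and 736 CPM, and Ccnb2, a mitotic cyclin, at 255 and 269 CPM.

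Pttg1 stood apart from the rest of the mitotic list. It encodes securin, the inhibitor of separase that holds sister chromatids together until anaphase. It had 741 UMIs in cycling mutant cells (1150 CPM) and 82 UMIs in cycling control cells (223 CPM), a ratio of 5.17 (4.11 to 6.57). The UMIs were spread over 137 of 194 mutant and 55 of 128 control cells, with at most 24 and 5 in a cell. In cushion-type cells with 0 cycle UMIs it stood at 198 CPM in mutant and 203 CPM in control cells, a ratio of 0.98 (0.75 to 1.28). The log2 ratio of cycling over 0 was thus 2.48 in the mutant and 0.13 in the control, where it was the lowest of the 58 mitotic genes. Over all alternative settings the log2 ratio of mutant to control in cycling cells lay between 2.14 and 2.58.

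Pttg1 was also higher in cycling mutant cells of the other gates. It stood at 998 CPM in mutant and 225 CPM in control Tcf21-gated cells with at least 2 cycle UMIs, at 445 and 144 CPM in endothelial-gated ones, and at 586 and 173 CPM in cells at or above the muscle limit. The ratios were 4.44 (3.40 to 5.89), 3.09 (2.17 to 4.52) and 3.39 (3.28 to 3.51). The control levels in these cycling cells were near those of control cells with 0 cycle UMIs, 174, 123 and 222 CPM, and near the 179 CPM of control barcodes with at most 100 UMIs. Among cells with 0 cycle UMIs at or above the muscle limit the mutant stood at 348 CPM against those 222 CPM, a ratio of 1.57 (1.44 to 1.72). Ube2c in the same gates stood at 672 and 795 CPM, 442 and 420 CPM, and 700 and 784 CPM in mutant and control cycling cells. A difference in Pttg1 was therefore present in lineages outside the cushion too, and with 1 library a genotype it cannot be told apart from a difference between the libraries or their animals.

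**Figure D4:**
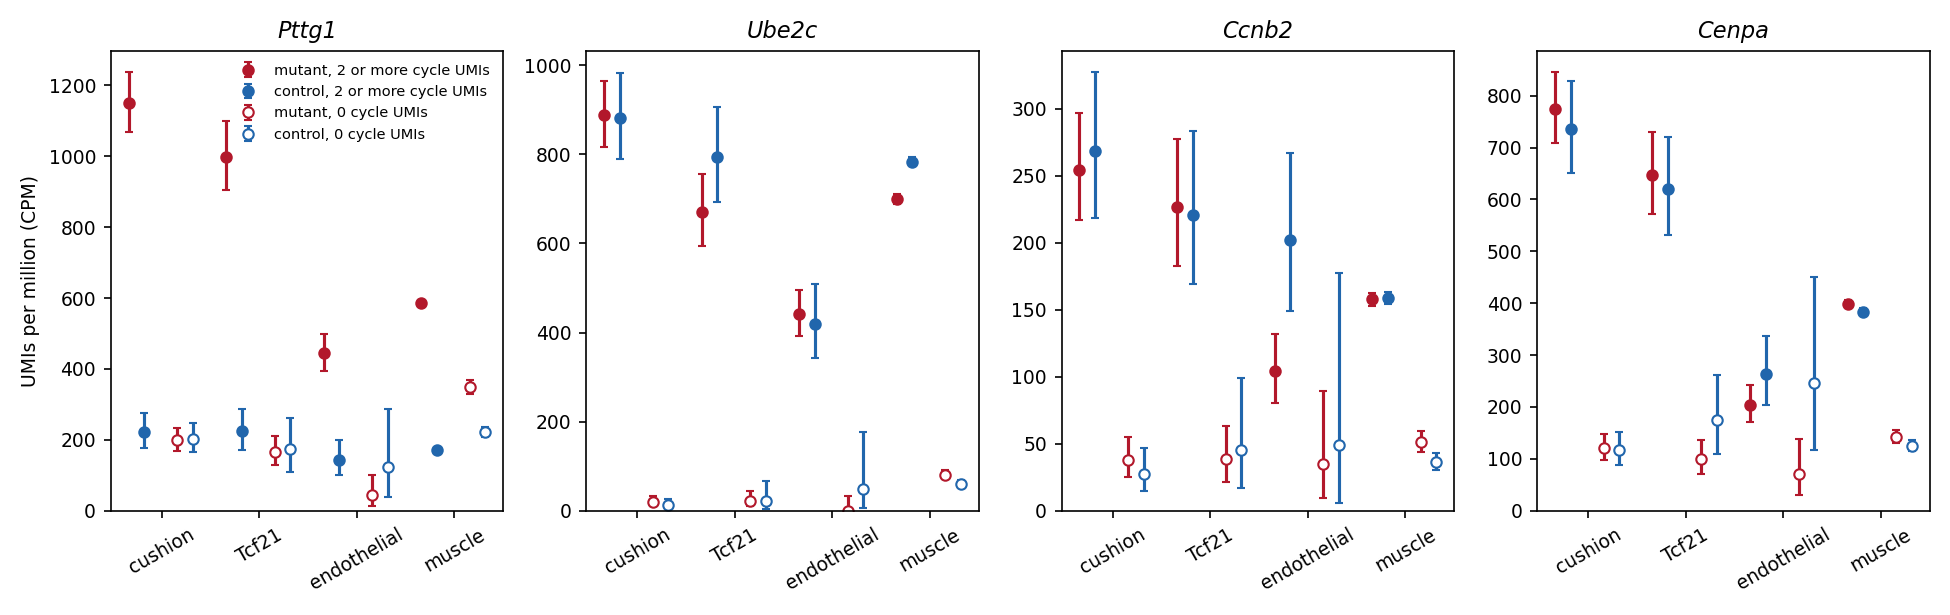
CPM with 95% Poisson intervals of Pttg1 and 3 other mitotic genes in cells with at least 2 cycle UMIs (filled) and with 0 (open) of 4 gates, mutant in red and control in blue. Pttg1 is higher in filled mutant points than in filled control points in all 4 gates, at 1150 against 223 CPM in cushion-type cells, while Ube2c stands at 888 and 882 CPM there.

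Further members of the cycle lists that were higher in the mutant had few UMIs. Kif4, a chromokinesin, had 34 UMIs in 21 mutant cells and 3 UMIs in 3 control cells, a ratio of 6.48 (2.04 to 33.0). Ccnb1 stood at 51.2 CPM in mutant and 24.4 CPM in control cells, Kif20b, a kinesin of cytokinesis, at 66.8 and 32.6 CPM, and Rrm1, the large subunit of ribonucleotide reductase, at 71.4 and 32.6 CPM. Ccnd2, a G1 cyclin, stood at 101 CPM in mutant and 32.6 CPM in control cells, from 65 UMIs in 29 cells and 12 UMIs in 12 cells. Its log2 ratio was 1.38, against -0.26 in cells with 0 cycle UMIs, and 0.59 without the deepest cells. Of the 16 tested cyclins, inhibitors and Rb family genes 6 were 1.5-fold higher and none lower, against 13.9% and 5.9% of all genes. Outside these lists, Hmga2, a chromatin protein of embryonic growth, stood at 79.2 CPM in mutant and 21.7 CPM in control cells, with a log2 ratio of 1.49, and 0.80 without the deepest cells.

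Dbi was the most abundant of the genes that were lower in the mutant. It encodes a protein that binds acyl-CoA. It stood at 1982 CPM in mutant and 5456 CPM in control cells, a ratio of 0.36 (0.34 to 0.39), and was seen in 187 of 194 and 126 of 128 cells. The ratio was 0.30 (0.28 to 0.31) in cushion-type cells with 0 cycle UMIs and 0.87 (0.68 to 1.10) in endothelial-gated cycling cells. In Tcf21-gated cycling cells it was 0.47 (0.40 to 0.56), and in those at or above the muscle limit 0.75 (0.74 to 0.77), so that Dbi was lower in the mutant outside the cushion gate and without cycling too. Its log2 ratio of -1.46 stayed between -1.66 and -1.38 under all alternatives. Acta2, smooth muscle actin, stood at 506 CPM in mutant and 1387 CPM in control cells (log2 -1.44), with 183 of its 511 control UMIs from 1 cell, and at 708 and 707 CPM in the 0 group. Cnn1, calponin, stood at 85.4 and 155 CPM. Of the 8 tested genes of the mural list 5 were 1.5-fold lower and none higher, against 5.9% and 13.9% of all genes. Acot13, an acyl-CoA thioesterase, stood at 41.9 and 125 CPM, and Hk2, a hexokinase, at 29.5 and 89.6 CPM. The log2 ratio of Hk2 of -1.33 became 0.32 when cells were thinned before the gates.

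**Figure D5:**
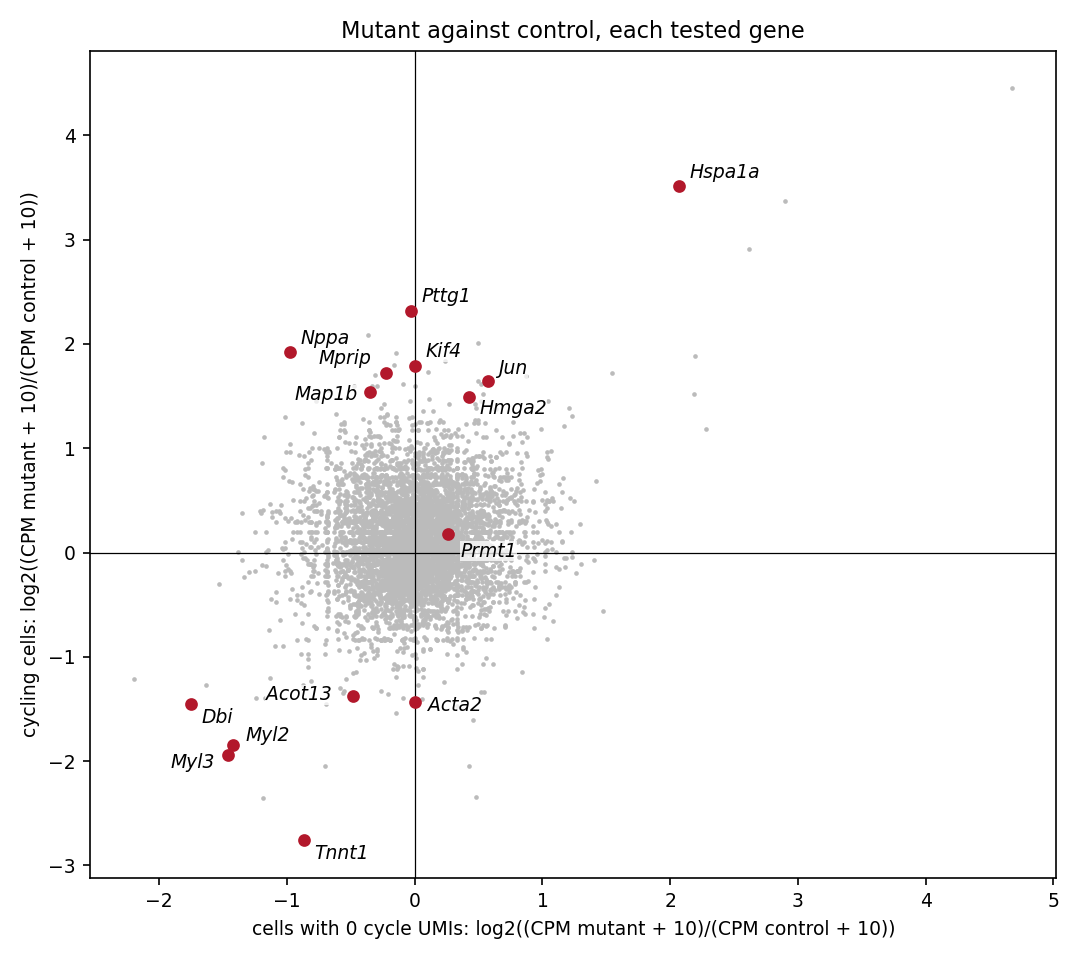
Log2 ratio of mutant to control CPM (with 10 added) of each of 6004 tested genes, in cycling cells (vertical axis) and in cells with 0 cycle UMIs (horizontal axis). Pttg1 lies on the vertical axis line, at 2.32 in cycling cells and -0.03 in the 0 group, whereas Dbi is low in both, at -1.46 and -1.75.

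Of the 10 lowest genes 6 were heart muscle genes, several of which rest on a few cells, as does the high gene Nppa. Myl2 had 113 UMIs in the mutant, 54 of them in 1 cell, and 242 in the control, 75 of them in 1 cell. Myl3 had 92 and 213 UMIs, and Tnnt1 2 and 29. Ankrd1 had 31 UMIs in the mutant and 85 in the control, and Tnni3 12 and 27, while Myh7 had 27 and 45. Nppa, a natriuretic peptide, had 51 and 5 UMIs, 46 of the mutant's in 1 cell. The cardiomyocyte list had 1 gene higher and 8 lower of 12 tested, against 13.9% and 5.9% of all genes at 1.5-fold. The list median of -0.76 was -0.19 without the deepest cells and 1.58 when cells were thinned to 1000 UMIs before the gates. No direction is given for this list.

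Part of the immediate early and heat shock genes stood higher in cycling mutant cells. Of 25 tested members of the immediate early and dissociation list 14 were 1.5-fold higher and none lower, against 13.9% and 5.9% of all genes. The list median was 0.69, against 0.19 in the 0 group. Jun, an AP-1 subunit, stood at 362 CPM in mutant and 109 CPM in control cells, with 51 of its 233 mutant UMIs in 1 cell, and its log2 ratio of 1.65 was 0.62 without the deepest cells. Cyr61, a YAP target, stood at 116 and 43.4 CPM, Gadd45g, a growth arrest gene, at 83.8 and 29.9 CPM, and Rhob, a stress-induced GTPase, at 115 and 43.4 CPM. Over the alternatives the list median lay between 0.16 and 0.92. These genes also respond to enzymatic dissociation, and its part was not tested.

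Hspa1a, the inducible HSP70, had 67 UMIs in 19 of 194 mutant cells and 0 UMIs in 128 control cells. The mutant level of 104 CPM was 12.8-fold that of 3 control UMIs, and the interval of the ratio began at 10.1. Of its mutant UMIs, 39 came from 1 cell. In the 0 group it had 31 UMIs in the mutant and 1 UMI in the control. The heat shock list had a median of 0.49, which was 0.28 without the deepest cells and 0.10 with cells thinned before the gates. Of 13 tested heat shock genes 6 were 1.5-fold higher and none lower, against 13.9% and 5.9% of all genes. Among the higher ones were the ER chaperone gene Hspa5 (236 and 122 CPM) and Hspa8 (711 and 418 CPM), whose log2 ratio of 0.75 was 0.08 without the deepest cells.

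Matrix and mesenchymal genes gave no firm direction. Of 56 tested extracellular matrix genes 19 were 1.5-fold higher and 2 lower, against 13.9% and 5.9% of all genes. The list median was 0.27, but -0.05 without the deepest cells. Postn, periostin, stood at 590 CPM in mutant and 266 CPM in control cells, and 116 of its 380 mutant UMIs were in 1 cell. Its log2 ratio of 1.12 was -0.14 without the deepest cells. Sox9, a factor of valve progenitors, stood at 196 and 117 CPM, and its ratio of 0.70 was -0.35 without them. Serpinh1, the collagen chaperone, stood at 298 and 133 CPM, with ratios of 1.11 and 0.48. Map1b and Mprip, which bind microtubules and myosin phosphatase, had 58 and 38 UMIs in the mutant and 9 and 4 in the control. Map1b's ratio of 1.54 was 0.03 without the deepest cells, and that of Mprip was 1.73 and 1.58. Eif1a stood at 60.5 and 16.3 CPM and Nfix at 69.9 and 21.7 CPM.

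Prmt1, the targeted gene, was present at similar levels in both libraries. It encodes the methyltransferase that makes most asymmetric dimethylarginine in mammalian cells. It stood at 812 CPM in cycling mutant cells and 717 CPM in cycling control cells, a ratio of 1.13 (0.98 to 1.32), and was seen in 172 of 194 and 104 of 128 cells. In the 0 group it stood at 740 CPM in mutant and 617 CPM in control cells. A 3′ tag outside the floxed part does not check the deletion, and the sources used here do not give which exons are floxed. The other 8 family members tested or listed had at most 10 UMIs in a library, Prmt5 with 10 in the mutant and 1 in the control. Of 34 RNA-binding proteins known to carry methylarginine 5 were 1.5-fold higher and none lower (median 0.29, and 0.01 without the deepest cells), a share near the 13.9% of all genes that were higher. G3bp1, a stress granule protein, stood at 60.5 and 21.7 CPM, and its log2 ratio of 1.15 was 0.62 without the deepest cells and -0.11 with cells thinned before the gates. Trp53, which encodes p53, stood at 54.3 CPM in mutant and 16.3 CPM in control cells, from 35 and 6 UMIs (ratio 3.34, 1.39 to 9.70). Its log2 ratio of 1.29 was 0.74 without the deepest cells and 0.60 with cells thinned before the gates. Of 8 tested p53 targets 3 were higher and none lower (median 0.07), against 13.9% and 5.9% of all genes.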

How the data were processed

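Per the labels' protocols, heart cells were freed by TrypLE digestion and run on the 10X Genomics Chromium v2 kit. The deposited matrices hold raw counts of UMIs for each gene in each barcode. Per the file headers, Cell Ranger 3.0.2 wrote them. Seurat appears in the submitters' processing notes without a version. The sources used here name no genome build or annotation. The control matrix listed 6794880 barcodes and was unfiltered, and the mutant matrix listed 7181 and was filtered. The deposited counts summed to 48527471 in the mutant and 49323576 in the control.

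UMIs were summed over the cells of each gate and library and divided by the sum's total (CPM). Gene ratios used a pseudocount of 10 CPM and genes with at least 10 CPM on average over the sums compared. Shares have Clopper-Pearson intervals, their differences Newcombe's, levels Poisson intervals and plain ratios exact conditional binomial intervals, all at 95%. These cover counting error only, and a sum of 0 was read as allowing 3 UMIs. With 1 library per genotype no p-value or standard error is given, and 14 alternative settings were tried. Doublets were scored after the Scrublet method and not removed, except in 1 alternative.

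The members and the 26 gene lists were chosen with earlier results of these data known. Named genes had at least 50 CPM in 1 sum and 30 UMIs over the sums and were not genes of the gate, mitochondrial, ribosomal, haemoglobin, sex-linked genes or Gm and Rik models. They were the 12 highest and 12 lowest of cycling cells against 0, ranked by the library in which they moved less, the 10 highest and 10 lowest of mutant against control whose endothelial ratio was opposite or under 0.5 of theirs, the members of each list past 1.5-fold (4 at most), the Prmt family, and fixed cycle and marker genes. Xist, Hbb-bt, Twist1 and the mitotic genes set beside Pttg1 were named as context, and the comparison of Pttg1 across gates was added after its values were seen. Promoters were from RefSeq (GRCm38.p6) and matched by symbol, for all the genes sought but Ccna2. The ratio step was tested on simulated Poisson counts. Python 3.11.15, numpy 2.4.6, scipy 1.17.1, pandas 2.3.3, scikit-learn 1.9.0 and matplotlib 3.10.9 were used.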

Additional observations from a re-analysis of the deposited data

Results flagged for a closer look

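For 9 genes the ratio of cycling cells to cells with 0 cycle UMIs pointed opposite ways in the mutant and control libraries, each with a counting interval that left out a ratio of 1 and a size above a set minimum. With 1 library per genotype the difference was not tested. Bicc1, an RNA-binding protein, had a log2 ratio of 1.06 in the mutant (90.0 CPM in cycling cells, 38.1 CPM with 0) and -0.88 in the control (35.3 and 73.2 CPM). Mprip had 0.83 in the mutant and -1.13 in the control, Map1b 0.77 and -1.12, and the stress granule gene G3bp1 0.63 and -1.07. The splicing factor gene Snw1 had 0.60 and -0.68, Postn 0.66 and -0.60, Prrc2c 0.59 and -0.75, and the cold shock protein gene Ybx1 0.36 and -0.82. Acta2 went the other way, at -0.48 in the mutant and 0.96 in the control. Single cells supplied 24 of the 58 mutant UMIs of Map1b, 116 of the 380 mutant UMIs of Postn and 183 of the 511 control UMIs of Acta2 in cycling cells. The part of these cells in the opposite signs was not tested.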

How the results depend on the processing

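For cycling against 0, the depth ratio and the mitotic and S phase medians kept their direction under every setting tried, as did the Prmt1 ratio between genotypes. The genotype difference in cycling share was -9.63 points with at least 2000 UMIs per cell, and lay between -9.63 and 1.10 over the settings. That in the Pclaf-only share lay between -5.74 and 3.79 points. The cause was not tested there, nor below unless a setting's own construction gives it (fewer genes, fewer cells). Pttg1 and Dbi kept direction throughout. Of 3 settings on cells, a minimum of 2000 UMIs gave depth ratios of 1.21 in the mutant and 1.02 in the control, 67 genes 2-fold lower in cycling cells, 303 genes 2-fold higher in the mutant and a control matrix median of -1.06. Gating on Cdk1, Prc1 and Top2a alone gave 17 genes lower in cycling cells, 286 higher and 125 lower in the mutant, and a mutant mitotic median of 2.56. With at least 5 cushion UMIs 18 genes were lower in cycling cells. Pseudocounts of 1 CPM gave 103 genes lower in cycling cells, 533 higher and 198 lower in the mutant, and mitotic medians of 4.19 in the mutant and 3.71 in the control. A pseudocount of 50 CPM gave 64 higher and 0 lower in cycling cells, 10 higher and 9 lower in the mutant, mitotic medians of 0.98 and 0.87, S phase medians of 0.54 and 0.41 and a control matrix median of -0.44. A filter of 50 CPM gave 71 higher and 3 lower in cycling cells, 31 higher and 20 lower in the mutant, and mitotic medians of 2.82 and 2.87, and no filter 291 higher in the mutant. A total without mitochondrial, haemoglobin and ribosomal genes gave 31 lower in cycling cells and 339 higher in the mutant.

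Leaving out the deepest 5% of cells gave 122 genes higher and 107 lower in the mutant, and control medians of 1.27 for S phase, -0.20 for matrix and 0.0408 for p53 regulators. The muscle list became -0.0432 in the mutant and -0.36 in the control for cycling against 0 and -0.19 between genotypes, and the matrix list -0.0528 between genotypes. For cycling against 0, Myl2 became -0.0432 in the mutant and -0.89 in the control, Myl3 -0.93 and -0.48, Actc1 -0.29 and -0.0604, and in the control Myl7 -0.72 and Lpp 0.64. Between genotypes Nppa became -0.32, Tnni3 0.0703, Sox9 -0.35 and Postn -0.14. Leaving out the top 6% of doublet scores gave -0.22 for the control muscle list, -0.19 between genotypes, Myl3 -0.65 in the mutant and -0.51 in the control, Actc1 -0.25 and -0.12, Myl2 -0.45 and Myl7 -1.06 in the control, and Nppa -0.46 between genotypes. Equal weight per cell gave 107 genes lower in the mutant, a mutant mitotic median of 2.14, a control matrix median of -0.32, genotype medians of 0.0349 for the mitotic, 0.0234 for the matrix and 0.23 for the immediate early list, Lpp 0.11 in the control, Myl3 -0.0182 in the mutant and Postn -0.0113 between genotypes.

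Thinning to 1000 UMIs before the gates gave 38 genes lower in cycling cells, 276 higher and 357 lower in the mutant, a mutant mitotic median of 1.93, matrix medians of -0.60 in the mutant and -0.12 in the control, and -0.31 for the control muscle list. Genotype medians were 0.0105 for the mitotic list, -0.19 for the matrix list, 0.16 for the immediate early list and 1.58 for the muscle list. For cycling against 0, Myl7 became -1.22 in the mutant and -0.39 in the control, and in the control Myl2 -0.78, Myl3 -1.16, Lpp 0.0128 and Peg3 0.44. Between genotypes Myl2 became 2.78, Myl3 2.02, Myh7 1.61, Tnni3 0.60, Hk2 0.32, G3bp1 -0.11, Map1b -0.33 and Postn -0.48. No paired analysis was possible because each genotype has 1 library and no test was run. The part of depth in the genotype ratios of genes with few UMIs was not tested.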

Other observations

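Values of lists that the comparisons above did not describe follow, beside all-gene medians of -0.04 in the mutant and -0.14 in the control for cycling against 0. TGF-beta and BMP genes had medians of -0.38 in the mutant and -0.36 in the control over 23 tested genes, of which 1 was 1.5-fold higher and 2 lower in both libraries. FGF, PDGF, ERBB and IGF genes had -0.37 and -0.66 over 20 genes, with none higher and 1 lower, and Wnt, Hedgehog and Notch genes -0.04 and -0.57 over 21, with none higher and 1 lower. Oxidative phosphorylation genes had medians of 0.03 and 0.20 over 42 genes, with only Cycs, cytochrome c, past 1.5-fold in both (1243 CPM in mutant and 1346 CPM in control cells, against 791 and 883 CPM with 0 cycle UMIs). Alyref, an mRNA export adaptor that carries methylarginine, stood at 801 and 923 CPM, against 520 and 506 CPM.

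Between the genotypes, oxidative phosphorylation genes had a median of -0.24 in cycling cells and -0.03 in the 0 group, with none of 42 past 1.5-fold, and -0.00 in cycling cells without the deepest 5%. The imprinted CDK inhibitor gene Cdkn1c was higher in both states, at 177 CPM in mutant and 92.3 CPM in control cycling cells, with log2 ratios of 0.87 there, 0.83 in the 0 group and 1.25 in endothelial-gated cells. Igf2r, the clearance receptor of IGF2, stood at 83.8 CPM in mutant and 29.9 CPM in control cells (log2 1.24, and 0.33 without the deepest cells).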
